A study of Homo sapiens with 2 samples.

Results

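The genes described here encode the BCL2 family, the inhibitor of apoptosis proteins (IAPs), the caspases and the death receptor FAS with its adaptors. The list held 31 genes, and its members were found by gene symbol, as the probe sets whose only symbol in the platform annotation was on the list. Of these 31 genes 29 had such a probe set, among 11963 genes on the arrays, and they had 77 of the 19065 probe sets with 1 symbol. No probe set carried BBC3 or BIRC3 as its only symbol, and these genes were not analysed here.

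RNA came from L-428, an established Hodgkin's lymphoma (HL) cell line. In 1 sample the cells carried pcDNA6.2-GW/EmGFP-miR-DUSP5, a plasmid that expresses an artificial microRNA against the phosphatase DUSP5 together with a green fluorescent protein. In the other they carried pcDNA6.2-GW/EmGFP-miR-neg, the control vector, so both samples were transfected and both express the fluorescent protein. Each condition had 1 Affymetrix HG_133A array from 1 cell line. The differences therefore have no replicate check, no p-value was computed, and the knock-down and a difference between the cultures cannot be told apart.

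Cells die by apoptosis along routes that meet at the caspases. On the mitochondrial route, BH3-only proteins such as BIM (gene BCL2L11) sense stress and bind the anti-apoptotic proteins BCL2, BCL2L1 and MCL1, which frees the effectors BAX and BAK1 to open the outer membrane. Cytochrome c then assembles with APAF1 and activates caspase 9, while DIABLO and HTRA2 leave the mitochondria and relieve caspases from the IAPs. On the receptor route, FAS recruits FADD and caspase 8, and CFLAR (FLIP) blocks that step. ERK signalling, which DUSP5 limits in the nucleus, is known to lower BIM by marking the protein for degradation and by restraining the FOXO factors that transcribe its gene. HL cells are known for strong expression of FLIP, which protects them from death through FAS.

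The promoters of 4 members are shown first, that of BCL2L11 because the study asked about this gene, and those of FAS, BIRC2 and XIAP because every probe set of these genes was at least 1.5-fold lower after knock-down. The same held for BCL2L2, which had no promoter window. Each sequence runs 5′ to 3′ over 300 bases, from 250 before to 50 after the transcription start that RefSeq lists first for the gene on assembly GRCh38.p14. The windows are chr2:111120664-111120963 for BCL2L11, chr10:88990548-88990847 for FAS, chr11:102346964-102347263 for BIRC2 and chrX:123859458-123859757 for XIAP, all on the plus strand. Capitals mark matches to 7 motifs searched on both strands.
BCL2L11: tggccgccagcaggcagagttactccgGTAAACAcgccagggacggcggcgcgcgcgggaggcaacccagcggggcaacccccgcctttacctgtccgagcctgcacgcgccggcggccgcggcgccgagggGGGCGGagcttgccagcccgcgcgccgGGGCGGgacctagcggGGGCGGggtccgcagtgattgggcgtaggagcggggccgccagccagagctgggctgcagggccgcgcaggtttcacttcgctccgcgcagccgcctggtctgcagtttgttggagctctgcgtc
FAS: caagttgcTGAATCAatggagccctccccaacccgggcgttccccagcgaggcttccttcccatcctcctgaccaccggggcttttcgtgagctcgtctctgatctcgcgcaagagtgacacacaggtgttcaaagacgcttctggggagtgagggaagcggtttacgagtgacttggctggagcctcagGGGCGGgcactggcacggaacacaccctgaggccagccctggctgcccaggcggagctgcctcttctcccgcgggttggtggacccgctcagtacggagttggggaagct
BIRC2: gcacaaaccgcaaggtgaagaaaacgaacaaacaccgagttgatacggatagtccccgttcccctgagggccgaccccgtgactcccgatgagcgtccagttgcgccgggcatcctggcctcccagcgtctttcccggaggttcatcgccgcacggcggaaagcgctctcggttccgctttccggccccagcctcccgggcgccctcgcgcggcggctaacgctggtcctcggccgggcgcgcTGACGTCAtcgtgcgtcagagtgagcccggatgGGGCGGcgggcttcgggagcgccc
XIAP: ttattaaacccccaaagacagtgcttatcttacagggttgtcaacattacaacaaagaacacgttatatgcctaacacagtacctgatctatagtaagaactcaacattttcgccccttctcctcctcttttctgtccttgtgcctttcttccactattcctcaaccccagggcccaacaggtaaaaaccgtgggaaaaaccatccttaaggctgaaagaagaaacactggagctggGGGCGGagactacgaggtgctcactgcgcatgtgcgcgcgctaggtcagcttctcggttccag
The BCL2L11 window held the FOXO motif GTAAACA, 223 bases before the start at its first letter, and 3 GC boxes (GGGCGG). The FAS window held 1 match to the AP-1 motif TGANTCA and 1 GC box, that of BIRC2 held 1 cyclic AMP element (TGACGTCA) and 1 GC box, and that of XIAP held 1 GC box. The FOXO motif occurred in 3.41% of 27305 promoter windows of the same length, taking 1 window per gene. Among the 25 members with a window BCL2L11 alone held it. The AP-1 motif occurred in 7.76% of all windows and in those of FAS, FADD and BBC3. The cyclic AMP element occurred in 1.98% and the GC box in 44.6% of all windows, and the GC box in 19 of the 25 member windows. The E-box CACGTG (7.43% of all windows), the ETS motif CCGGAAGT (4.44%) and the NF-kB motif GGACTTTCC (0.374%) matched none of the 4 windows shown. The matches shown do not overlap, a match is a description of the letters only, and binding of any factor was not measured.

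The deposited values are signal intensities on a linear scale, scaled by the authors on each array to a target of 500. The median over all probe sets was 164 on the knock-down array and 161 on the control array. Differences are given as the log2 ratio of the signals, knock-down over control, so that a negative value is lower after knock-down. Signals of different probe sets cannot be set against each other, because each binds with its own strength. The error of a ratio was taken as the standard deviation (SD) between neighbouring probe sets of 1 gene in the same band of mean signal. This SD was 1.21 at mean signals below 100 and 0.76 in the next band, up to 200. It was 0.43 between 200 and 500, 0.35 up to 1000, 0.30 up to 3000 and 0.28 for brighter probe sets. A gene was taken as measured if its brightest probe set had a mean signal of at least 200 over both arrays, and that probe set stood for the gene. DUSP5 itself had a signal of 368 after knock-down, against 628 with the control vector (log2 ratio -0.77, SD 0.43). GAPDH, a glycolytic enzyme often used as a reference gene, had a median log2 ratio of 0.98 at its 3 probe sets. ACTB (beta-actin), another gene used as a reference, was also higher after knock-down, with ratios of 0.76 and 0.80 (SD 0.28). Of 10 HL markers 9 were measured, 7 of them higher and 2 lower after knock-down, between TNFRSF8 (CD30) at 3618 in knock-down cells and 1724 in control cells (1.07) and FUT4 (CD15) at 317 in knock-down cells and 756 in control cells (-1.25). Of 6 B-cell markers with a probe set 1 was measured, as were 0 of 5 T-cell and 0 of 5 myeloid markers. The summed signals were 437 in knock-down cells and 260 in control cells for the T-cell markers, and 213 in knock-down cells and 116 in control cells for the myeloid markers, and their part in the results was not tested.

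Of the 29 genes 22 were measured. After knock-down 6 of them were at least 1.5-fold lower (BCL2, BIRC2, FAS, XIAP, BCL2L1 and BCL2L2) and 2 at least 1.5-fold higher (CASP1 and BCL2L10), while 14 lay between. CASP1 passed the limit on signal only through the knock-down array. This is 27.3% lower and 9.09% higher, beside 19.0% lower and 15.6% higher among all 6301 measured genes. The median log2 ratio of the 22 genes was -0.08, beside 0.01 for all measured genes. Relative to GAPDH all 22 were below 0, as was the median of all genes (-0.97), and the 9 genes above 0 on the deposited scale then lay between -0.94 and -0.30. The 2 classes of inhibitors, anti-apoptotic BCL2 proteins and IAPs, held 5 of the 6 lower genes and FAS was the other. These were 3 of 6 measured anti-apoptotic genes and 2 of 2 measured IAPs, beside 19.0% of all measured genes at least 1.5-fold lower. The classes were set with earlier results of these data known. CFLAR, which blocks the FAS step (0.15 at its brightest probe set), was placed with the receptor and adaptors. No measured BH3-only gene, effector or mitochondrial IAP antagonist passed this size in either direction. Each of these classes had only 2 measured genes, too few for a contrast with the inhibitors, and BAX (0.58) was just under the size. The BH3-only genes below the limit on signal all passed it at their brightest probe set, BCL2L11 (-0.995) and BID (-1.27) lower, BIK (1.19) and HRK (2.65) higher. By class the median was -0.91 for 2 IAPs, -0.43 for 6 anti-apoptotic genes, -0.12 for 2 IAP antagonists, -0.06 for 3 genes of the receptor and adaptor class, 0.01 for 2 BH3-only genes, 0.20 for 5 caspases and 0.24 for 2 effectors. Of the 46 member probe sets above the limit of 200, 22 were lower and 6 higher by more than 1 SD, beside 28.9% lower and 26.0% higher among all 9037 such probe sets. By more than 2 SD 13 were lower and 0 higher, beside 14.6% lower and 10.9% higher among all. Probe sets of 1 gene are not independent here, since FAS gave 4 and CFLAR 9 of the 46, and no test stands behind these counts.

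**Figure D1:**
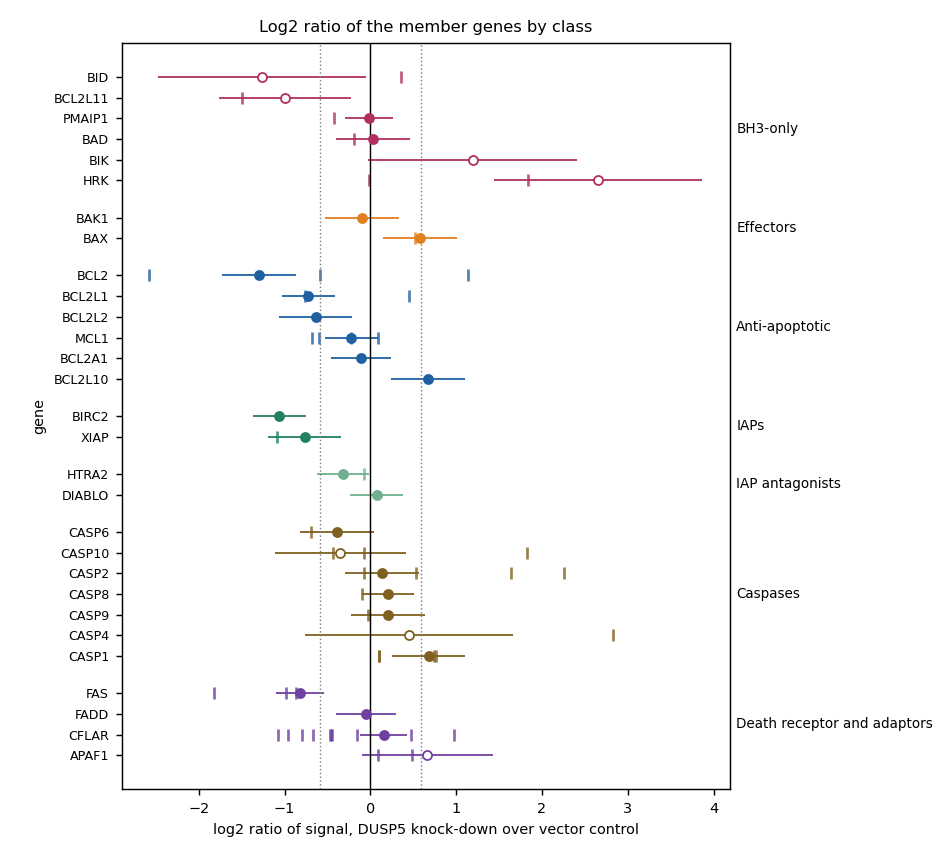
Log2 ratio (DUSP5 knock-down over vector control, 1 array each) of 29 genes by class. Circles are the brightest probe set of a gene, filled where its mean signal was at least 200 and open where it was lower, bars are 1 SD between probe sets at that signal, ticks are the other probe sets, and dotted lines mark 1.5-fold. BCL2 (-1.30) and BIRC2 (-1.06) lie farthest to the left among filled circles, and BCL2L11 (-0.995) is an open circle.

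BCL2L11 had a lower signal after knock-down at both of its probe sets, and both were dim. The brighter gave 89.8 in knock-down cells and 179 in control cells, with a ratio of -0.995 and an SD of 0.76. The second gave 19.9 in knock-down cells and 56.1 in control cells, with a ratio of -1.50 (SD 1.21). Both ratios exceeded 1 SD and neither reached 2 SD. With 32 added to each signal the second was -0.76, but the SD was computed on the deposited signals only and gives no measure of error on that scale. At this brightness a lower signal was less common than a higher one on these arrays, since 19.3% of probe sets with a mean signal under 200 were at least 1.5-fold lower and 34.4% at least 1.5-fold higher. Ratios below the 1.5-fold mark were found for 18.3% of probe sets with a mean signal of 100 to 200, the band of the brighter probe set, and for 19.6% of those under 100. Among the 29 genes BCL2L11 had the 4th lowest ratio at its brightest probe set, below 20 of the 22 measured genes, with only BCL2 and BIRC2 of the measured genes lower. Among all 77 member probe sets its dimmer one ranked 3rd and its brighter one 9th from the lowest. With SDs of 1.21 and 0.76 these places among the genes and the probe sets are uncertain. The 31 member probe sets with a mean signal under 200 comprised 5 at least 1.5-fold lower and 12 at least 1.5-fold higher.

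The other BH3-only genes lay on both sides of 0, and neither of the 2 measured ones reached 1.5-fold at any probe set. PMAIP1 (NOXA), which binds MCL1, gave 8073 in knock-down cells and 8171 in control cells at its brightest probe set (log2 ratio -0.02, SD 0.28), and 2102 in knock-down cells and 2829 in control cells at its other (-0.43, SD 0.30). The first pair of signals was nearly equal and the second differed by more than 1 SD. The first ratio of PMAIP1 was -0.35 after quantile normalization and -0.31 with a signal trend subtracted. Both lay beyond the SD of 0.28, which was computed on the deposited signals only. BAD, whose activity is held back by survival kinases, gave 450 in knock-down cells and 440 in control cells at 1 probe set (0.03) and 191 in knock-down cells and 217 in control cells at the other (-0.19), both within 1 SD of 0.43. BID, which links caspase 8 to mitochondria, had mean signals under 25 and ratios of -1.27 and 0.35 at its 2 probe sets, of opposite sign. BIK gave 54.4 in knock-down cells and 23.8 in control cells (1.19, SD 1.21). HRK, best known from neurons, had ratios of 2.65, -0.02 and 1.83 at 3 probe sets, none with a signal above 37.9 on either array. These values lie far under the median signals of the arrays (164 after knock-down and 161 in control), and with an SD of 1.21 the ratios of BID, BIK and HRK cannot be ordered.

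Of the effectors, BAX was higher after knock-down at both probe sets. They gave 430 and 357 in knock-down cells, against 288 and 249 in control cells, with log2 ratios of 0.58 and 0.52 (SD 0.43). Both exceeded 1 SD, though each was just under 1.5-fold and the first became -0.40 relative to GAPDH. BAK1, the other pore-forming protein, gave 379 in knock-down cells and 405 in control cells (-0.10), which is within 1 SD.

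**Figure D2:**
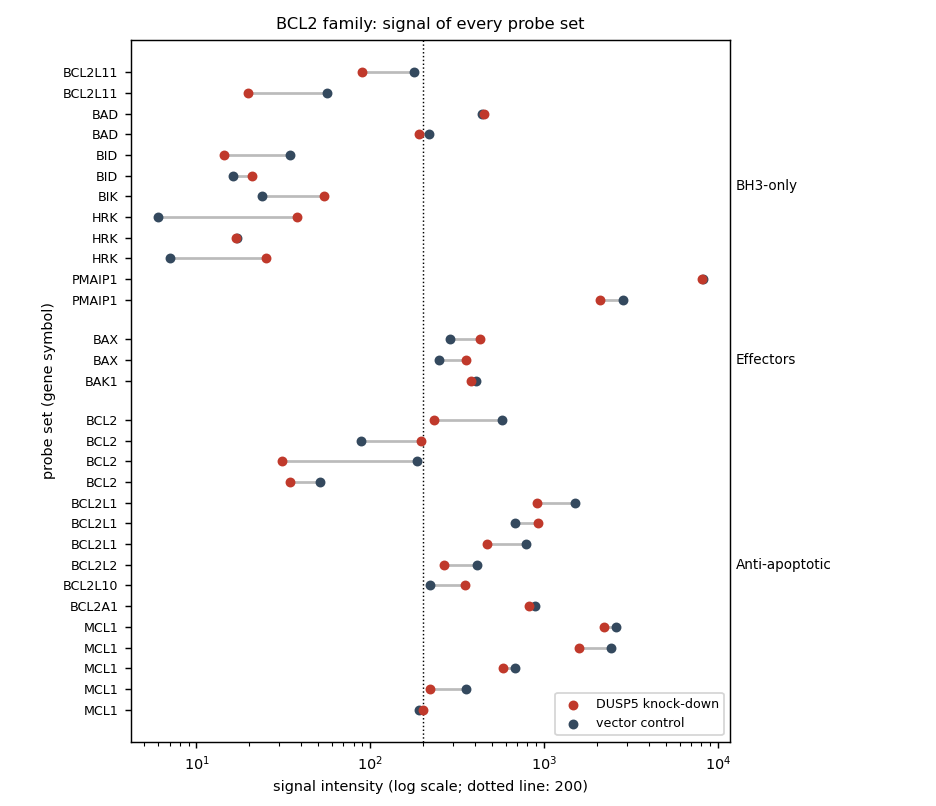
Signal intensity (log scale) of every probe set of the BCL2 family on the DUSP5 knock-down array (red) and the vector control array (dark), 1 row per probe set, ordered within each gene by mean signal; the dotted line marks 200. Both BCL2L11 rows lie left of the line with the knock-down point lower, and both BAX rows have it higher, though relative to GAPDH the brightest BAX probe set turned to -0.40.

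The anti-apoptotic BCL2 genes had ratios below 0 in 5 of 6 cases, and 3 of them were at least 1.5-fold lower. Among all 6301 measured genes 3125 were below 0 and 19.0% were at least 1.5-fold lower. BCL2, the founding member of the family, gave 232 in knock-down cells and 572 in control cells at its brightest probe set (-1.30, SD 0.43), which is 40.6% of control and more than 2 SD. Its other 3 probe sets had mean signals under 200 and differed in sign, at -2.58, -0.58 and 1.14. BCL2L1 (BCL-XL), which guards mitochondria in many lymphoid cells, gave 914 in knock-down cells and 1507 in control cells (-0.72, SD 0.30) and, at the dimmest of its 3 probe sets, 467 in knock-down cells and 790 in control cells (-0.76, SD 0.35). Its remaining probe set went the other way, with 920 in knock-down cells and 676 in control cells (0.44, SD 0.35), so that the probe sets of BCL2L1 disagree beyond their error, and with their mean of -0.35 the gene was under 1.5-fold.

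BCL2L2 (BCL-w) gave 265 in knock-down cells and 412 in control cells at its only probe set (-0.64, SD 0.43), and was just under 1.5-fold after quantile normalization or with 32 added to each signal (-0.58 in both). MCL1, a short-lived protein that restrains BAK1, was lower at all 4 probe sets above the limit, with ratios from -0.68 to -0.22, of which 2 exceeded 1 SD. Its remaining probe set, at a mean of 196, gave 0.08 (SD 0.76). Its brightest probe set gave 2219 in knock-down cells and 2585 in control cells (-0.22), which is within 1 SD of 0.30. BCL2A1, an NF-kB target in B cells, gave 815 in knock-down cells and 881 in control cells (-0.11, SD 0.35), which is within 1 SD. BCL2L10 was the exception in direction, with 349 in knock-down cells and 219 in control cells (0.67, SD 0.43), and turned to -0.31 relative to GAPDH.

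Both measured IAP genes were lower after knock-down. BIRC2 (cIAP1), a ubiquitin ligase of TNF receptor complexes, gave 822 in knock-down cells and 1713 in control cells at its only probe set, or 48.0% of control, and its ratio was -1.06 (SD 0.30), which is more than 3 times the SD. XIAP, which binds and inhibits caspases directly, gave 205 in knock-down cells and 349 in control cells at 1 probe set (-0.77, SD 0.43) and 129 in knock-down cells and 273 in control cells at the other (-1.08, SD 0.43). The mean signal of the second was 201, just above the limit of 200, which it passed through the control array alone. The mitochondrial proteins that oppose IAPs lay nearer to 0. DIABLO (SMAC) gave 1994 in knock-down cells and 1897 in control cells (0.07). The protease HTRA2 gave 1006 in knock-down cells and 1254 in control cells (-0.32, SD 0.30), and -0.08 at its other probe set.

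Of the 5 measured caspase genes 4 lay under 1.5-fold at their brightest probe set. Caspase 8, the initiator below FAS, gave 1260 in knock-down cells and 1096 in control cells (0.20, SD 0.30), and -0.10 at its other probe set. Caspase 9, the initiator of the mitochondrial route, gave 499 in knock-down cells and 432 in control cells (0.21, SD 0.43), and -0.02 at its other probe set. Both differences were within 1 SD. Caspase 6, an executioner, gave 337 in knock-down cells and 442 in control cells (-0.39, SD 0.43), also within 1 SD. CASP2, an initiator linked to the response to DNA damage, had ratios of 0.13 and 0.53 (SD 0.43) at its 2 measured probe sets, of which the second exceeded 1 SD and passed the limit through the knock-down array alone, and from -0.08 to 2.25 at 3 dim ones. CASP1, which processes interleukin 1 in inflammation rather than apoptosis, was the only measured caspase gene at least 1.5-fold higher. It gave 257 in knock-down cells and 161 in control cells (0.68, SD 0.43) at a mean signal of 209, while its next probe set, at a mean of 160, gave 0.10 and the ratio of the first relative to GAPDH was -0.30. CASP10, a relative of caspase 8, was dim at 4 probe sets, with ratios of -0.35, -0.43, -0.07 and 1.82. CASP4, a sensor of bacterial lipopolysaccharide, had signals of 68.7 and 53.6 in knock-down cells and 50.3 and 7.55 in control cells at its 2 probe sets.

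**Figure D3:**
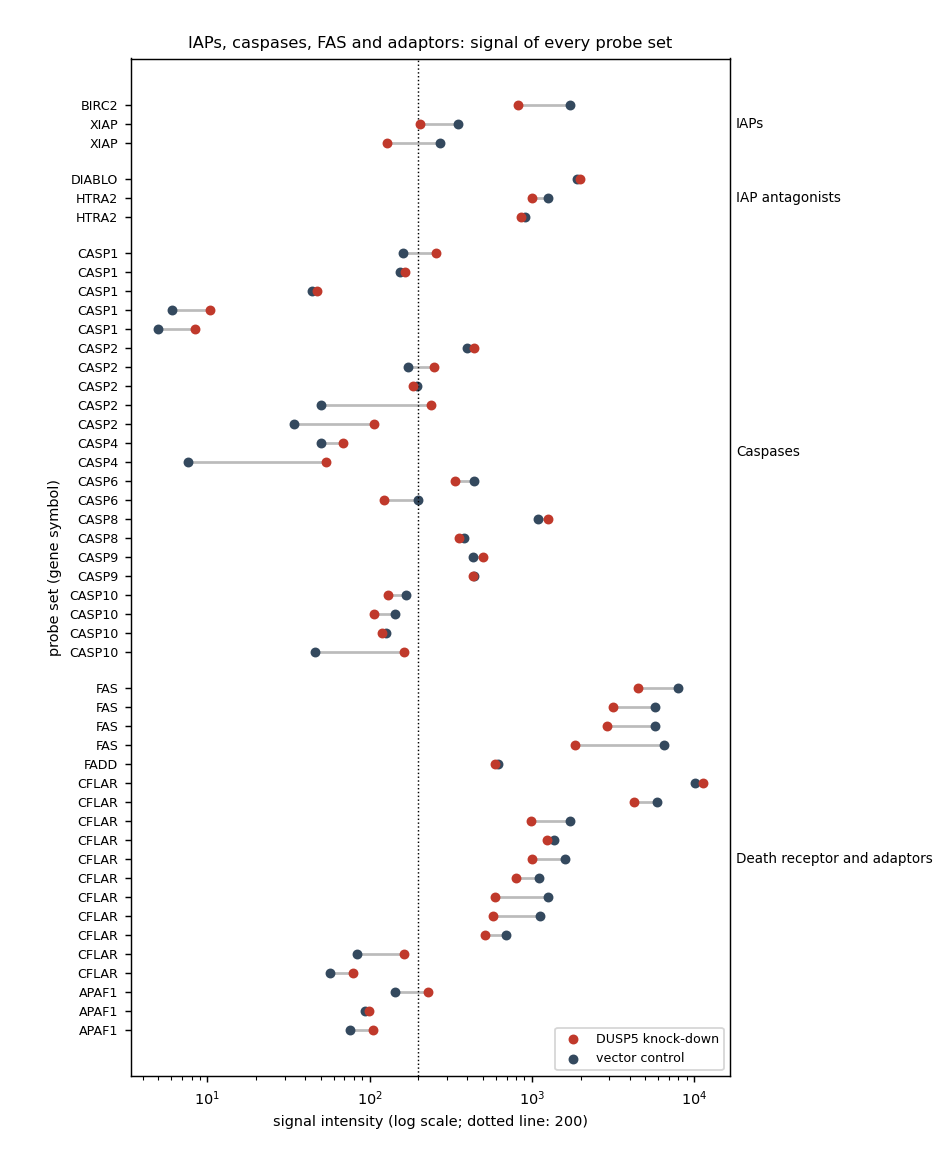
Signal intensity (log scale) of every probe set of the IAPs, their mitochondrial antagonists, the caspases and the receptor and adaptor genes on the DUSP5 knock-down array (red) and the vector control array (dark), 1 row per probe set; the dotted line marks 200. All 4 FAS rows have the knock-down point lower, as do 8 of the 9 CFLAR rows to the right of the line, and the widest gaps among the caspases lie at dim probe sets.

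FAS (CD95), the death receptor of the list, was lower at all 4 of its probe sets, each with a mean signal above 3000. Its signals were 4501, 3159, 2907 and 1856 in knock-down cells, against 7947, 5767, 5731 and 6562 in control cells. At each of the 4 the knock-down signal was the lower. The log2 ratios were -0.82, -0.87, -0.98 and -1.82, each more than 2 times the SD of 0.28, and the signals were between 28.3% and 56.6% of control. The probe set with the lowest ratio is of the type _x_at, which can bind related transcripts, and so is that with -0.98. Among the 12 members with several probe sets above the limit, FAS and XIAP had all of theirs at least 1.5-fold lower, as did 8.59% of the 1897 genes of that kind. XIAP is among the 12 only through the control signal of its second probe set, which is the higher one. All such probe sets were below 0 in 5 of these 12 members (FAS, XIAP, MCL1, PMAIP1 and HTRA2), beside 35.7% of the 1897 genes.

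The other genes of the receptor class lay nearer to 0 at their brightest probe sets, and the probe sets of CFLAR varied widely. FADD, which bridges FAS and caspase 8, gave 595 in knock-down cells and 619 in control cells (-0.06, SD 0.35), which is within 1 SD. CFLAR had 11 probe sets, of which 9 were measured. The brightest gave 11324 in knock-down cells and 10183 in control cells (0.15, SD 0.28), within 1 SD, and its ratio was -0.23 after quantile normalization and -0.20 with a signal trend subtracted. The other 8 were lower, from -1.08 to -0.16, and 4 of them by at least 1.5-fold. At the lowest of these CFLAR gave 594 in knock-down cells and 1253 in control cells. The gene is thus read differently by its brightest probe set than by most of the rest, and the mean over the 9 was -0.54. All 9 are of the types _x_at, which can bind related transcripts, or _s_at. Without these types neither CFLAR nor FAS counted as measured. The 2 dim CFLAR probe sets were higher, at 0.98 and 0.47. APAF1, the scaffold of the apoptosome, had ratios of 0.66, 0.09 and 0.49 at 3 probe sets, all with mean signals under 200 and all within 1 SD. Its brightest, at a mean of 187, lay just under the limit.

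Other apoptosis genes outside the list gave a comparison. Of 53 listed genes 44 had a probe set and 31 were measured, with a median log2 ratio of 0.07. Of the 31, 5 were at least 1.5-fold lower and 4 at least 1.5-fold higher. This is 16.1% lower and 12.9% higher, near the 19.0% lower and 15.6% higher among all measured genes. The lowest were XAF1, an interferon-induced antagonist of XIAP (242 in knock-down cells and 869 in control cells, -1.84), FAIM, an inhibitor of FAS signalling (170 in knock-down cells and 448 in control cells, -1.40), and the TRAIL receptor TNFRSF10B (473 in knock-down cells and 1094 in control cells, -1.21). FAIM passed the limit on signal only through the control array, and TNFRSF10B had ratios of 0.16 and -0.76 at its other probe sets. The mitophagy receptor BNIP3L was the fourth, with -1.13 at both of its probe sets. At the other end VDAC1, a channel of the outer mitochondrial membrane, gave 4604 in knock-down cells and 1503 in control cells (1.61), the caspase inhibitor AVEN 744 in knock-down cells and 248 in control cells (1.59), the mitochondrial ribosomal protein DAP3 1.17 and the DNA repair enzyme and caspase substrate PARP1 0.68. FOXO3, a transcription factor of BCL2L11 named here after its values were seen, had a ratio of -0.39 (SD 0.30). FOXO1, also named after its values were seen, was below the limit on signal. It gave 124 in knock-down cells and 237 in control cells (-0.93, SD 0.76), and -1.04 at its other probe set. The part of both genes in the BCL2L11 values was not tested.

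**Figure D4:**
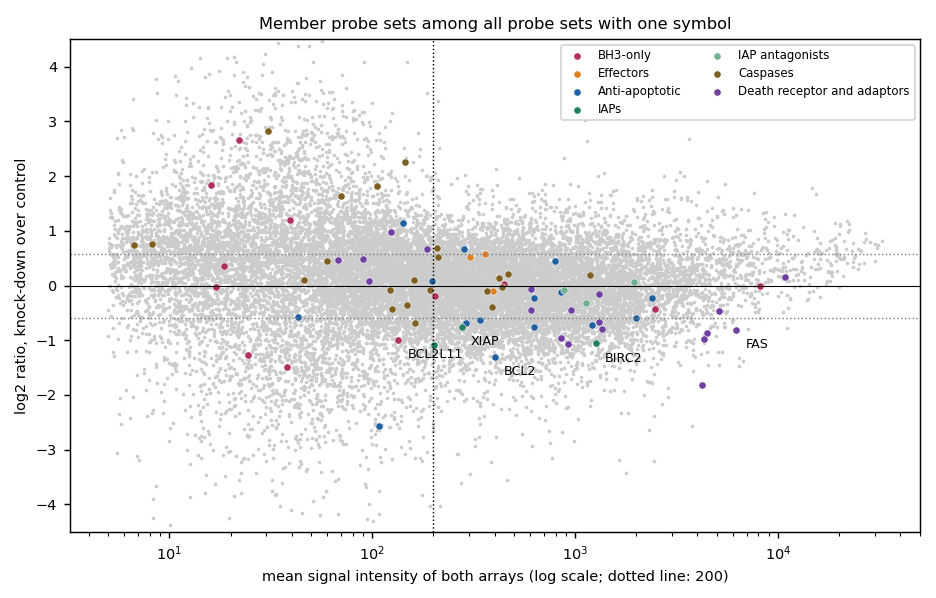
Log2 ratio (DUSP5 knock-down over vector control) against the mean signal of both arrays (log scale) for 19065 probe sets with 1 symbol (grey), with member probe sets coloured by class and the brightest probe set of 5 genes named. Dotted lines mark 1.5-fold and a mean signal of 200, and 280 dimmer probe sets and 17 with larger ratios lie outside the axes. The spread of the grey points narrows with signal, and FAS (-1.82 to -0.82) lies in the narrow part while BCL2L11 (-0.995) lies in the wide part.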

How the data were processed

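The authors processed the Cel files of 2 Affymetrix HG_133A arrays with Expression Console and the MAS5 algorithm, and scaled each array to a target of 500, so that the file holds intensities as the authors deposited them, on a linear scale. No detection calls were used, so a dim probe set is judged by its signal alone. Probe sets were named from the platform annotation of 2016, 68 control probe sets were left out, and 1043 probe sets with several symbols and 2107 without one were not named. From the intensities, log2 ratios (knock-down over control) were computed with no further normalization. SDs came from pairs of probe sets of 1 gene that were neighbours in signal within a band, and cover probe error, not the spread between cultures. The members, classes, motifs and lists were chosen with earlier results of these data known. All members are given, and of the further apoptosis genes the 4 highest and 4 lowest measured ones, with FOXO3 and FOXO1 added after their values were seen. Alternatives were quantile normalization, centring on the median, subtraction of a lowess fit on signal (span 0.3), 32 added to each signal, ratios relative to GAPDH, other limits on mean signal (none, 100 and 500), the mean of all probe sets, omission of the types _s_at and _x_at, and a 2-fold size. Steps were tested on simulated data. Promoters are from RefSeq (GRCh38.p14), matched by symbol for 25 of 31 members. Python 3.11.15, numpy 2.4.6, pandas 2.3.3, statsmodels 0.14.6 and matplotlib 3.10.9 were used.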

Additional observations from a re-analysis of the deposited data

How the results depend on the processing

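No paired analysis was possible because a single array stands for each condition, and this limits the precision of every value. Relative to GAPDH, whose median ratio of 0.98 this scale subtracts, all 22 measured members were below 0 and so was the median of all genes (-0.97). On that scale 19 members were at least 1.5-fold lower and 0 higher, beside 75.4% lower and 0.78% higher among all genes, the medians were -1.05 for all members, -0.97 for BH3-only genes, -0.74 for effectors, -1.41 for anti-apoptotic genes, -1.89 for IAPs, -1.10 for IAP antagonists, -0.77 for caspases and -1.03 for the receptor and adaptor class, the brighter BCL2L11 probe set stood at -1.97, and 9 members changed sign, BAD (-0.94), DIABLO (-0.90), CASP2 (-0.84), CFLAR (-0.82), CASP8 (-0.77), CASP9 (-0.77), BAX (-0.40), BCL2L10 (-0.31) and CASP1 (-0.30). The count of members at least 1.5-fold higher, 2 as reported, was 0 with ratios centred on their median (11.0% of all genes), 1 with 32 added (14.2%), 5 of 29 with no limit on signal (24.6%), 0 of 11 with the limit at 500 (15.7%), 1 of 12 without the types _s_at and _x_at (14.5%) and 0 at 2-fold (4.38%). The count of those lower, 6 as reported, was 3 of 11 with the limit at 500 (18.9% of all genes) and 2 at 2-fold (BCL2 and BIRC2, 7.30%). It was 5 of 22 with quantile normalization (17.1%), 32 added (17.7%) and the mean of all probe sets (18.3%). After centring (24.1%) and with lowess (18.1%) it was 6 of 22, and without the types _s_at and _x_at 6 of 12 (21.3%). With the limit at 100 it was 7 of 25 (18.3%), and with no limit 8 of 29 (18.7%). The median of the members was -0.20 after centring and -0.38 without the types _s_at and _x_at, beside -0.12 and -0.04 for all genes. That of the anti-apoptotic genes was -0.22 with the limit at 500 and -0.66 without those types, and that of the receptor and adaptor class was -0.54 with the mean of all probe sets. Under the 5 scalings tried the brighter BCL2L11 probe set ranged from -1.97 to -0.79 and the dimmer from -2.47 to -0.76. Centring, the GAPDH scale and 32 added could not have raised these negative ratios above 0. The other scalings could have done so, and gave -1.07 and -1.74 with quantile normalization and -1.12 and -1.80 with lowess. Of 144 values of single members under the alternatives, 114 stayed within the SD between probe sets of the reported value and 30 moved further, 22 of these on the GAPDH scale. Part of this was fixed in advance. Centring shifts each ratio by less than the smallest SD, so all 22 centred values had to stay. The GAPDH scale shifts each by more than the largest SD of a measured member, so all had to move. A gene with 1 measured probe set cannot move with the mean of all probe sets. The count therefore does not measure robustness. Apart from GAPDH 8 values changed sign, those of BAD and DIABLO after centring, CFLAR and FADD with quantile normalization and with lowess, and BAD and CFLAR with the mean of all probe sets. The cause of these moves was not tested.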
